A study of Pimephales promelas and Coturnix japonica and Xenopus laevis with 724 samples.

Results

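The 100 identifiers described here are those with the highest levels, relative to controls, in the liver of early-life Japanese quail exposed to ethinylestradiol (ee2), a synthetic oestrogen. Levels are given in CPM, the count of an identifier scaled by the total of its library. For each exposure level, L was the log2 of the group mean plus 1 CPM over the control mean plus 1 CPM. Identifiers had to reach a mean of 2 CPM at HIGH, and any with an L of 1 or more at HIGH in either fathead minnow ee2 table was left out. This kept 9912 of 25644 identifiers, which were ranked by the smaller of L at MED and L at HIGH, and the first 100 were taken. A member is called by its rank. The minnow rule kept out 22 identifiers that would have ranked above the last member, 3 of them within the first 10.

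The series holds 724 libraries of 6 vertebrate species, each exposed to 1 of 8 chemicals or to dimethyl sulfoxide (dmso), the solvent of the controls. The early-life and adult quail ee2 tables have the levels CTRL (5 early-life and 6 adult libraries), MED (5 each) and HIGH (5 each). CTRL, MED and HIGH also exist for early-life benzo[a]pyrene (bap, a combustion product), selenomethionine (seme, an organic selenium compound) and trenbolone (tb, a synthetic androgen), and for adult bap and lead (pb), with 5 libraries a group. Other quail tables have no labelled control and hold 5 libraries each at MED and HIGH: early-life chlorpyrifos (cpf, an insecticide), fluoxetine (flx, an antidepressant) and hexabromocyclododecane (hbcd, a flame retardant), and adult cpf, flx, hbcd, seme and tb. The labels give neither doses nor sex, and nothing in them says that the libraries of a group came from separate birds, so each p-value is set against a spread between libraries that may be only technical.

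In egg-laying vertebrates the liver makes the yolk precursors, and oestrogen acting through its nuclear receptor in hepatocytes switches their genes on. The response is known from males and young as well as laying females, and the precursor transcripts are markers of oestrogen exposure. The deposited identifiers carry no gene names, and 0 of the 100 matched the gene table used here, so no member is given a name, role or sequence, and the labelled tissue could not be checked against marker genes. In whole liver, fewer cells of a type and less RNA per cell cannot be told apart. The 186 quail libraries used had total counts from 7749387 to 49078234, with a median of 19479222.

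Rank 1 (s2f_0020325001) and rank 2 (s2f_0005567006) were at most 9.85 and 25.4 CPM in 4 of the 5 control libraries and higher in control replicate 3. They were at least 2663 and 3884 CPM in every exposed library. Rank 1 had 7.53, 9.85, 139, 0.415 and 0.264 CPM in the 5 early-life controls, 4958, 10582, 15908, 14025 and 5685 CPM at MED, and 13375, 8497, 4108, 2663 and 12430 CPM at HIGH. Rank 2 had 19.3, 25.4, 365, 1.48 and 2.53 CPM in controls, 12757, 33059, 37146, 27404 and 10937 CPM at MED, and 28224, 26833, 9538, 3884 and 24166 CPM at HIGH. Every exposed library lay above every control for both, and control replicate 3 stood far above the other 4. The reads behind the rank 1 values numbered 5 to 2172 in controls, 130201 to 276745 at MED and 53423 to 331619 at HIGH.

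For rank 1, L was 7.99 at HIGH and 8.31 at MED. Without control replicate 3 these became 10.54 and 10.86. For rank 2, L was 7.79 at HIGH and 8.18 at MED, and 10.46 and 10.85 without that control. These values chose the members and are given with no test. Within the 10 exposed libraries rank 2 had 1.46 to 3.16 times the CPM of rank 1 (median 2.22). The length of the transcripts is not given in the sources used here, so this ratio compares counts and not molecules.

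Ranks 3 to 8 had at most 4.23 CPM in any control. Rank 3 had 0.263, 0.505, 3.96, 0.178 and 0.0527 CPM in controls, 139, 207, 623, 582 and 428 CPM at MED, and 240, 632, 365, 220.7 and 583 CPM at HIGH. Rank 4 had at most 0.703 CPM in a control, 33.5 to 327 CPM at MED and 20.2 to 167 CPM at HIGH. Rank 5 had at most 1.47 CPM in a control, 24.7 to 61.3 CPM at MED and 17.5 to 77.5 CPM at HIGH. For ranks 3 to 8 no exposed library overlapped a control, and control values rested on as few as 1 read in a library.

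Ranks 9 and 10 had a measurable control level. Rank 9 had 42.0, 30.1, 32.4, 59.2 and 26.5 CPM in controls, 306, 544, 579, 538 and 315 CPM at MED, and 641, 490, 227, 195 and 518 CPM at HIGH. Rank 10 had 3.02, 1.89, 54.7, 3.50 and 3.69 CPM in controls, 189, 180, 483, 236 and 166 CPM at MED, and 210, 157, 109, 115 and 127 CPM at HIGH. Exposed and control libraries did not overlap for either, and control replicate 3 was again the high control for rank 10. Its L at HIGH was 3.33 with that library and 5.17 without it.

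Rank 31, singled out after its values were seen, was the most abundant member in controls. It had 9899, 9130, 9817, 7748 and 8148 CPM in controls, 26332, 40644, 34449, 30279 and 22568 CPM at MED, and 25377, 26658, 24225, 23825 and 26626 CPM at HIGH. The lowest exposed library lay above the highest control. Together ranks 1, 2 and 31 made up 89.4% of the members' summed difference between the HIGH and control means. The 100 members took 0.940% to 1.21% of all counts in controls, 4.46% to 9.38% at MED and 3.39% to 7.40% at HIGH.

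**Figure D1:**
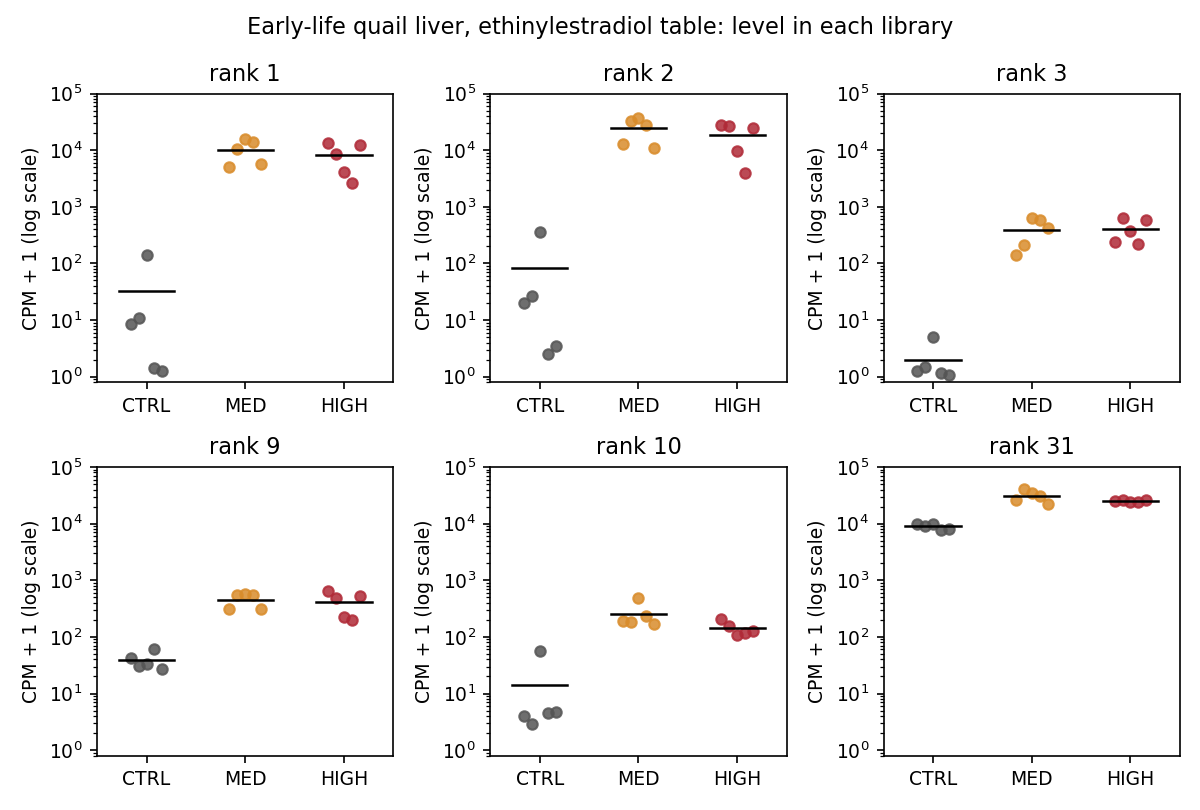
Level of ranks 1, 2, 3, 9, 10 and 31 in each early-life library of the ethinylestradiol table, in CPM plus 1 on a log axis, by exposure level; each point is a library and each line a group mean (5 libraries). All MED and HIGH libraries lie above all controls in each panel, and 1 control stands above the other 4 at ranks 1, 2, 3 and 10.

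Below the first members the differences were small in most cases. L was at least 4 at both levels for 5 members, at least 2 for 16 and at least 1 for 65. Rank 20 had a ranking value of 1.81, rank 50 of 1.25 and rank 100 of 0.8. The members on either side of the limit were not set apart: ranks 99 and 100 both had 0.8, and the next identifiers, outside the list, 0.799 and 0.799. Control means were under 1 CPM for 22 members, from 1 to 10 CPM for 39, from 10 to 100 CPM for 36, from 100 to 1000 CPM for 2 and above that for rank 31.

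The levels did not order the members by dose. The HIGH mean was above the MED mean for 38 members and below it for 62, and median L was 1.34 at HIGH and 1.38 at MED. Among the HIGH libraries, replicate 4 was the lowest for 50 members and replicate 1 the highest for 50. Among the MED libraries, replicate 1 was the lowest for 41 and replicate 4 the highest for 45. A single library held more of the HIGH sum than the other 4 together for 14 members, in 8 of them replicate 1, in 5 replicate 5 and in 1 replicate 2, and for 9 members a single library did so at MED.

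All 5 HIGH libraries lay above all 5 controls for 63 members, where 1.51% of the 12992 identifiers tested in that table did so. All 5 MED libraries lay above the controls for 63 members, against 1.97% of all identifiers, and both held for 51 members. In the edgeR quasi-likelihood test with Benjamini-Hochberg adjustment over all identifiers, 55 of the 100 members passed an adjusted p of 0.05 as higher at HIGH (background 0.824%) and 55 as higher at MED (background 0.916%). The median log2 fold change of the members was 1.51 at HIGH and 1.64 at MED, beside -0.01 and 0.00 over all identifiers. The members were chosen on these libraries, so nothing is read from these counts.

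The exposed libraries of the ee2 table were also set beside the 15 controls of the early-life bap, seme and tb tables. The HIGH mean was above the control means of all 3 tables for 99 members and the MED mean for all 100, and against the mean of the 15 controls the median L at HIGH was 1.28. The members were chosen on these exposed libraries, so these values are a description and nothing is read from them. The control mean of the ee2 table itself was below the 3 other control means for 30 members, where 33.6% of 11767 identifiers with a mean control level of at least 1 CPM were. The ee2 controls entered the rule as well, so nothing is read from this share either.

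In adult livers exposed to ee2, 1 member passed the test. Of the 100 members 79 passed the filter on low counts and were tested. At HIGH, 1 of the 79 was called in the edgeR quasi-likelihood test with Benjamini-Hochberg adjustment, as higher (background 0.0587% of 11932 identifiers). At MED 0 of 79 were called (background 0.0%), 4 had an unadjusted p below 0.05 (5.06% of them, beside 8.02% of all identifiers), and DESeq2 called 0. MED and HIGH share their controls in every table, so the 2 levels are not independent. The median log2 fold change of the tested members was 0.06 at HIGH and -0.03 at MED, beside 0.00 and -0.02 over all identifiers. At HIGH 45 of 79 had a positive log2 fold change, and 11 an unadjusted p below 0.05, which is 13.9% of them beside 9.39% of all identifiers.

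The member called was rank 13. In adult livers it had 28.7, 6.44, 8.30, 8.94, 13.2 and 12.9 CPM in controls, 29.8, 28.2, 10.3, 26.6 and 14.0 CPM at MED, and 45.2, 46.7, 33.5, 51.5 and 54.8 CPM at HIGH. The HIGH and control libraries did not overlap, and rank 13 was the only tested member for which all HIGH libraries were above all controls (background 0.193%). The log2 fold change at HIGH was 1.98 (SE 0.305, adjusted p = 0.0312, edgeR). Over 16 alternatives the adjusted p ran from 9.73e-07, by DESeq2, to 0.12, by edgeR. With the replicate number as a block its adjusted p was 0.0751, and no member was called. Without control replicate 3, 4, 5 or 6, or without HIGH replicate 2, no member was called either. In early-life livers rank 13 had 1.21 to 3.09 CPM in controls, 4.40 to 27.8 CPM at MED and 5.54 to 47.4 CPM at HIGH.

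For ranks 1 and 2 a single adult library carried most of the difference. Rank 1 had 1.61, 0.694, 0.871, 0.596, 2.21 and 1.17 CPM in adult controls, 2.47, 2.44, 1.52, 2.34 and 2.17 CPM at MED, and 5012, 6.65, 2.39, 4.50 and 1.76 CPM at HIGH. Rank 2 had 3.80, 0.501, 0.769, 0.159, 1.42 and 6.62 CPM in controls, 3.51, 4.29, 2.86, 4.39 and 7.82 CPM at MED, and 10307, 32.8, 7.36, 9.66 and 6.44 CPM at HIGH. HIGH replicate 1 was in the range of the early-life exposed libraries for rank 1, and the other 4 HIGH libraries had at most 6.65 CPM of rank 1. The log2 fold change at HIGH was 9.72 for rank 1 (SE 1.95, adjusted p = 0.102) and 9.95 for rank 2 (SE 2.0, adjusted p = 0.102). Without HIGH replicate 1 it was 1.83 for rank 1 (adjusted p = 0.148) and 2.90 for rank 2 (adjusted p = 0.222). Without HIGH replicate 5 both passed the test (edgeR adjusted p = 0.0409 for rank 1 and 0.0422 for rank 2), and 3 members were called. The adult HIGH libraries are numbered 1, 2, 3, 5 and 6, so replicate 5 is not the last of them.

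HIGH replicate 1 also stood above the rest for other members. Rank 9 had 44.0, 30.9, 27.7, 22.8, 22.2 and 29.98 CPM in adult controls, 15.4 to 28.1 CPM at MED, and 378, 40.0, 26.4, 28.2 and 22.2 CPM at HIGH. Rank 8 was at 105 CPM in HIGH replicate 1, 2.24 to 22.0 CPM in the other HIGH libraries and 0.925 to 10.7 CPM in controls. Rank 31 had 6498, 4759, 3244, 4256 and 2584 CPM at HIGH and 2546 to 4364 CPM in controls, which overlap. Among the 73 members with a mean of at least 1 CPM in the table, HIGH replicate 1 was above the 15 other libraries for 11, of which 7 were among ranks 1 to 10. Over all identifiers at that level it was above the others for 8.77%. Whether this library differs from the others for a reason other than the exposure was not tested.

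Ranks 3 and 6, near 0 in early-life controls, were near 0 in every adult group and were not tested there. Rank 3 had at most 1 read in any adult ee2 library, and rank 6 at most 3 reads. Ranks 4, 5, 7, 8, 9 and 10 had log2 fold changes at HIGH of 2.04, 0.26, 0.20, 3.11, 1.78 and 1.55. None of these passed the edgeR test (adjusted p from 0.229 to 0.911). The lowest log2 fold changes among tested members at HIGH were -1.50 for rank 92 (s2f_0000073039, SE 0.762, adjusted p = 0.562) and -1.18 for rank 28 (s2f_0001026010, SE 0.580, adjusted p = 0.552). Neither passed the edgeR test.

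**Figure D2:**
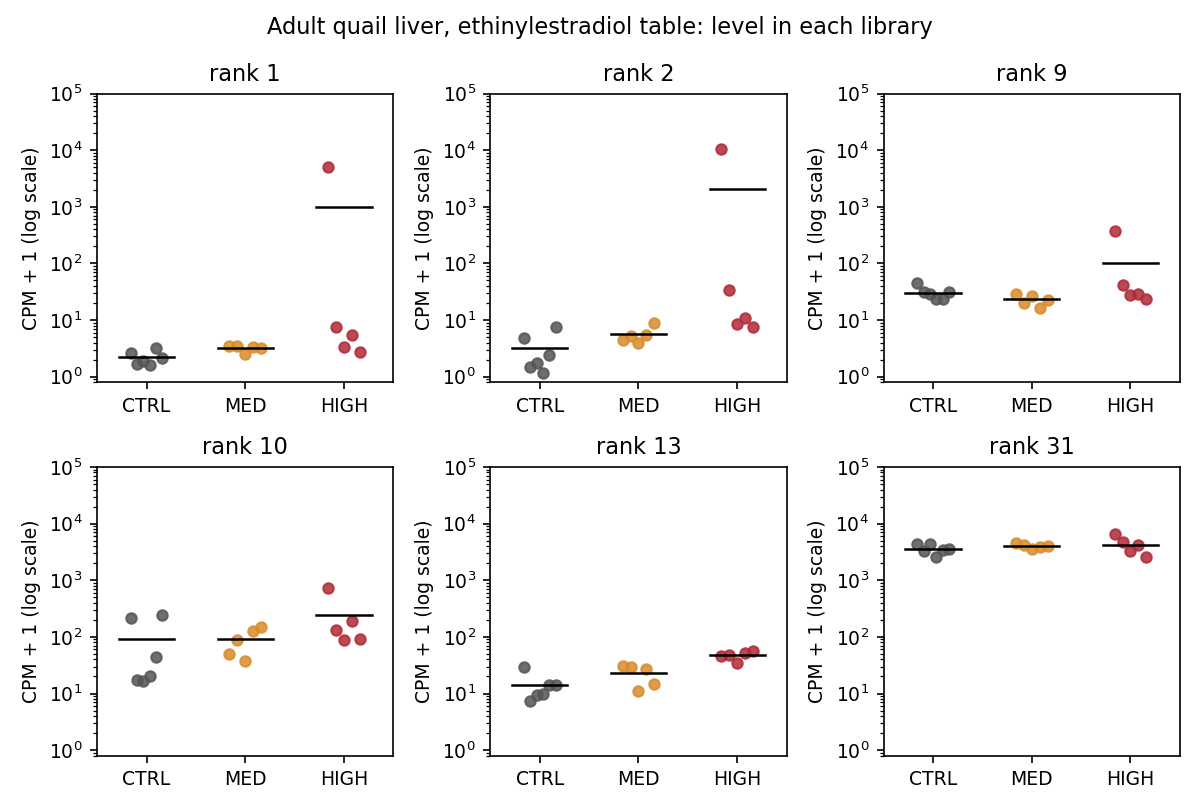
Level of ranks 1, 2, 9, 10, 13 and 31 in each adult library of the ethinylestradiol table, in CPM plus 1 on a log axis, by exposure level; each point is a library and each line a group mean (6 control, 5 MED and 5 HIGH libraries). HIGH replicate 1, the leftmost HIGH point, stands apart at ranks 1, 2 and 9, and the HIGH libraries of rank 13 lie above the controls without overlap.

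Adult and early-life control livers also differed in the levels of some members, though stage and table cannot be told apart. For 23 of the 100 members the control mean of each of the 3 adult tables was above the early-life ee2 HIGH mean, beside 14.0% of the 9912 identifiers that passed the rule before ranking. For 41 members each adult control mean was below the early-life ee2 control mean, beside 74.0% of the 9912. The early-life ee2 means chose the members, and the rule favours a low control mean. These shares are therefore a description and nothing is read from them. Rank 52, singled out after its values were seen, averaged 428 CPM at early-life HIGH and 77.8 CPM in early-life controls, and averaged 17497, 21632 and 23162 CPM in adult ee2, bap and pb controls. In the adult ee2 table its HIGH libraries had 15116 to 25554 CPM and its controls 13562 to 21320 CPM, and its log2 fold change was 0.20 (SE 0.246, adjusted p = 0.848, edgeR). Rank 50, also singled out afterwards, averaged 2003 CPM at early-life HIGH, 361 CPM in early-life controls and 5697 to 8512 CPM over the 3 adult control means.

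In all, 20 quail comparisons used libraries other than the early-life ee2 ones, those of the adult ee2 table included, and rank 13 was the only member called in any by edgeR. The members' median log2 fold change ranged from -0.38 to 0.19 over the 20. By both edgeR and DESeq2 no member was called in 12 of them. With controls in the same table, bap at HIGH in early life had a member median of 0.19, beside 0.02 over all identifiers. Of its 93 members tested 0 were called by edgeR (background 0.0232%), 23 had an unadjusted p below 0.05, and DESeq2 called 5 (background 0.875%). An unadjusted p below 0.05 was found for 24.7% of the members and for 10.7% of all identifiers. For adult pb at HIGH the median was -0.26, beside -0.01 over all identifiers, with 0 of 77 called by edgeR (background 0.0256%), 21 with an unadjusted p below 0.05 and 2 called by DESeq2 (background 0.904%). That is 27.3% of the members at an unadjusted p below 0.05, beside 13.5% of all identifiers.

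For seme and tb in early life, and for bap in adults, member medians at HIGH were 0.13, -0.01 and -0.11. In these 3 comparisons 0 members were called by edgeR (background 0.0% in each), and DESeq2 called 0. An unadjusted p below 0.05 was found for 8 members in seme (8.89%, beside 5.83% of all identifiers), 8 in tb (8.7%, beside 4.84%) and 14 in adult bap (18.4%, beside 6.92%). For tb, the androgen, rank 1 had 0.142, 22.9, 5.33, 0.628 and 0.375 CPM in controls, 0.391 to 0.697 CPM at MED, and 0.133 to 0.678 CPM at HIGH. The log2 fold change of rank 1 was -4.18 at HIGH (SE 1.10, adjusted p = 0.971) and -3.58 at MED (SE 1.03, adjusted p = 0.763), and neither passed the test, with 1 control well above the other 4. At MED, edgeR and DESeq2 called 0 members in early-life bap (background 0.0465%), seme and tb and in adult bap and pb (background 0.0% in each of these 4). At MED an unadjusted p below 0.05 was found for 7 members in early-life bap (7.53%, beside 5.37% of all identifiers), 0 in seme (beside 1.46%) and 5 in tb (5.43%, beside 6.04%). It was found for 10 members in adult bap (13.2%, beside 4.61%) and 6 in adult pb (7.79%, beside 2.52%).

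Early-life livers had rank 1 and rank 2 at higher levels than the rest in some libraries with no ee2. Over the 75 early-life libraries outside the ee2 table rank 1 had a median of 0.593 CPM, was under 1 CPM in 42 and reached 100 CPM in 6. Over the 80 adult libraries outside the ee2 table the median was 0.668 CPM and 1 library reached 100 CPM, adult cpf HIGH replicate 5 with 120 CPM. That library also had 107 CPM of rank 2. The 6 early-life libraries belonged to the hbcd table, with 5, and to the flx table, with 1, and neither table has a labelled control.

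In the early-life hbcd table rank 1 had 59.5, 0.297, 15.6, 0.134 and 273 CPM at HIGH, and 190, 148, 4.995, 112 and 3384 CPM at MED. Rank 2 had 21.7, 2.50, 47.0, 3.31 and 123 CPM at HIGH, and 863, 518, 9.83, 418 and 6534 CPM at MED. For both members MED replicate 5 lay above early-life ee2 HIGH replicate 4 (2663 and 3884 CPM) and below every other exposed library of that table. The hbcd HIGH and MED ranges overlapped for both members. Rank 3 had at most 7.33 CPM at HIGH, and reached 85.6 CPM in MED replicate 1 and 76.0 CPM in MED replicate 5. Rank 4, which reached 20.2 CPM or more in every ee2-exposed early-life library, had at most 2.11 CPM at HIGH and 7.12 CPM at MED.

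Over the 96 members tested, the median log2 fold change of hbcd HIGH against MED was -0.38, beside 0.01 over all identifiers, and 19 were positive. None was called by edgeR (background 0.0%), 20 had an unadjusted p below 0.05, which is 20.8% of them beside 9.0% of all identifiers, and DESeq2 called 1 (background 0.519%). Without MED replicate 5 the median was -0.24, with 28 of 96 positive. MED replicate 5 was above the 9 other libraries for 40 of the 90 members with a mean of at least 1 CPM, and for 23.0% of all identifiers at that level. In the early-life flx table rank 1 had 84.8, 16.3, 0.192, 9.42 and 129 CPM at HIGH and 0.135 to 6.33 CPM at MED, with a log2 fold change of 4.98 (SE 1.31, adjusted p = 0.999, edgeR). Without a labelled control, neither level of these tables can be called raised.

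**Figure D3:**
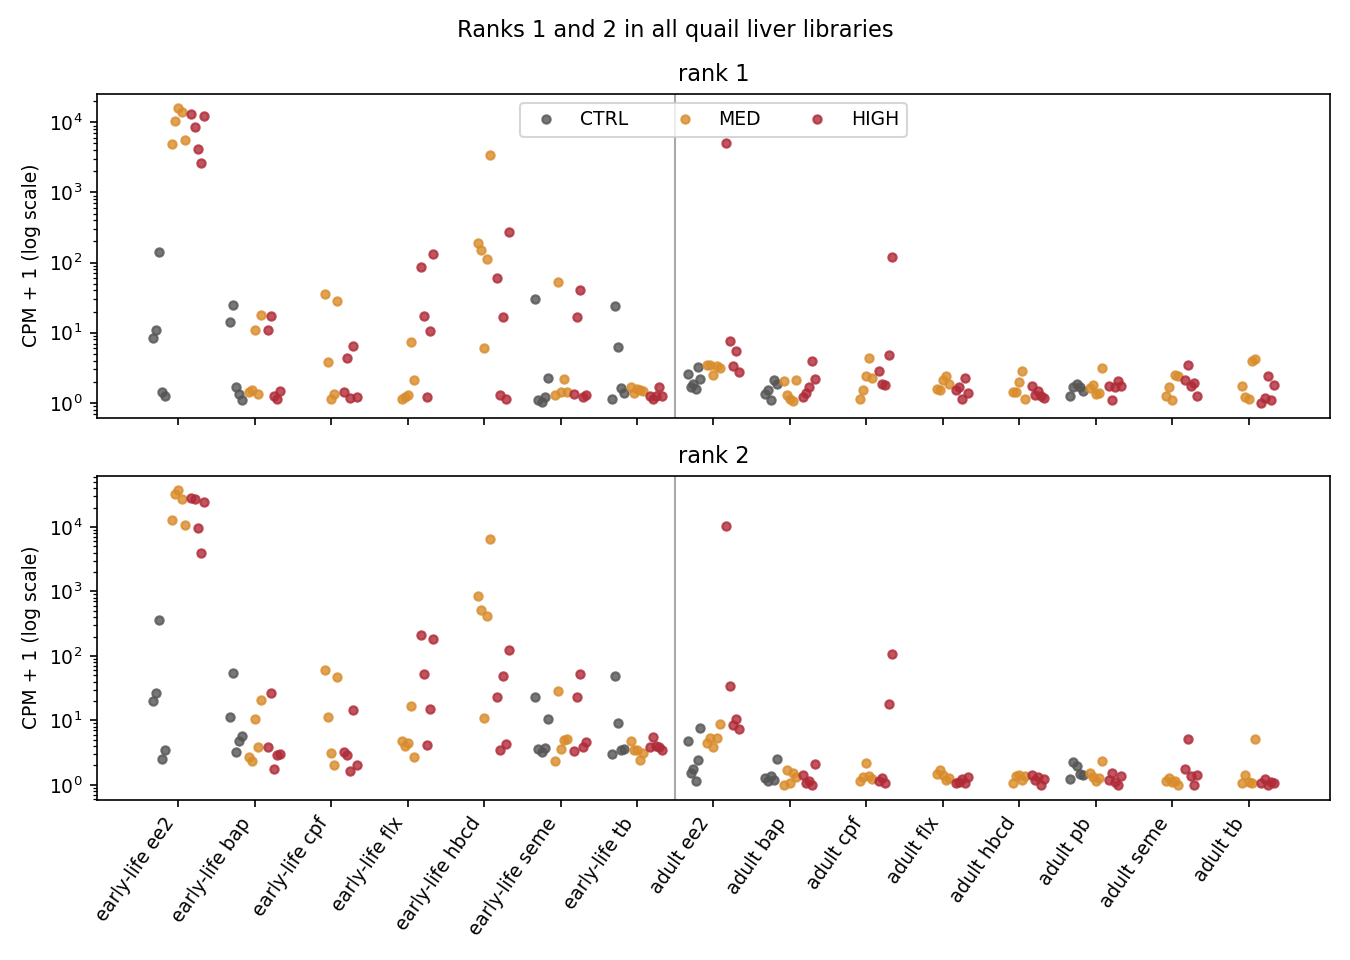
Level of rank 1 (top) and rank 2 (bottom) in all 186 quail liver libraries, in CPM plus 1 on a log axis, by table and exposure level; each point is a library, early-life tables are left of the grey line and adult tables right of it. The exposed libraries of the early-life ee2 table, 1 adult ee2 HIGH library and 1 early-life hbcd MED library stand highest.

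In the other tables without controls, HIGH against MED gave member medians from -0.13 in adult tb to 0.12 in adult flx, and edgeR called 0 members in each. DESeq2 called 10 of 90 members in early-life cpf (background 3.37%), where edgeR called 0.642% of all identifiers and 24 members had an unadjusted p below 0.05 (26.7%, beside 11.9% of all identifiers). In adult seme DESeq2 called 8 of 76 (background 4.55%), where edgeR called 0.473% of all identifiers and 20 members had such a p (26.3%, beside 16.0%). In adult flx DESeq2 called 7 of 73 (background 3.77%), and 21 members had such a p (28.8%, beside 17.9%). In early-life flx DESeq2 called 1 of 89 (background 0.104%), and 15 members had such a p (16.9%, beside 4.37%). In adult cpf, hbcd and tb DESeq2 called 0. Such a p was found there for 6 members in cpf (8.22%, beside 2.28%), 7 in hbcd (10.1%, beside 5.2%) and 7 in tb (9.86%, beside 6.39%). The edgeR background was 0.0% in the last 5 of these tables.

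**Figure D4:**
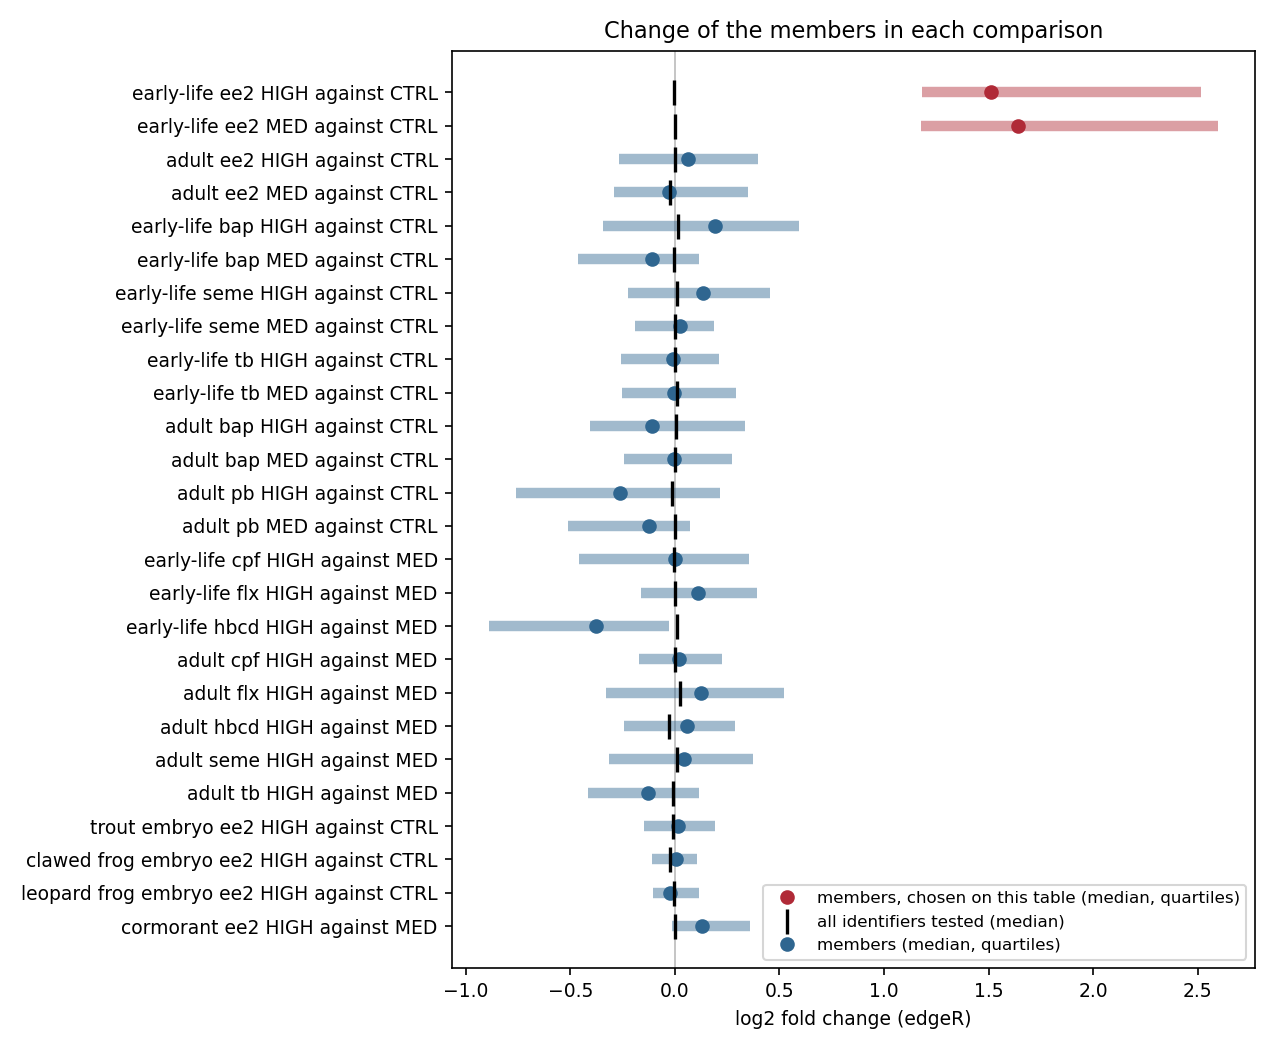
Log2 fold change of the members in each comparison: the dot is the median and the bar runs between the quartiles of the members tested, and the tick is the median over all identifiers tested. The early-life ee2 comparisons, on which the members were chosen, are in red; the other 24 have member medians between -0.38 and 0.19.

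The identifiers are shared across the species of the series, which allows the members to be looked up in other ee2 tables. Of the 100, 99 had a count in minnow, 99 in cormorant, 93 in clawed frog, 90 in leopard frog and 73 in trout. In the same order, 99.3%, 98.7%, 94.0%, 94.7% and 84.7% of the 9912 identifiers had one. Counts in all 5 of these species were present for 69 members, beside 82.0% of the 9912 identifiers that passed the rule before ranking, and for 4 of ranks 1 to 10. In whole embryos exposed to ee2 at HIGH, the members' median log2 fold change was 0.02 in trout (54 tested), 0.00 in clawed frog (86 tested) and -0.02 in leopard frog (78 tested), beside -0.01, -0.02 and -0.01 over all identifiers. Embryos are another tissue from liver, and the comparison does not separate tissue from species.

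One member was called in trout, rank 71, as higher (background 1.0%), and 0 in either frog by edgeR or DESeq2 (background 0.0%). In trout DESeq2 called 1 member, beside 273 of the 15940 identifiers tested. An unadjusted p below 0.05 was found for 10 members in trout (18.5%, beside 14.4% of all identifiers). It was found for 2 members in clawed frog (2.33%, beside 0.963% of all identifiers) and 3 in leopard frog (3.85%, beside 5.44%). In trout embryos rank 71 had 303, 303 and 318 CPM in controls, 331, 366 and 425 CPM at MED, and 404, 454 and 396 CPM at HIGH. In CPM the HIGH libraries of rank 71 all lay above the controls, the only member of the 54 tested for which they did (background 1.94%). For 15 of the 54 all HIGH libraries lay below all controls in CPM (background 38.1%). The log2 fold change of rank 71 at HIGH was 0.68 (SE 0.126, adjusted p = 0.0139, edgeR). It was not called without HIGH replicate B, control replicate A or control replicate B. In early-life quail rank 71 was low, with 1.01 to 1.79 CPM in controls, 2.45 to 6.60 CPM at MED and 0.798 to 8.49 CPM at HIGH.

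Double-crested cormorant, the other bird, was sampled as early-life liver. Its ee2 table has 5 libraries each at MED and HIGH and no labelled control, and HIGH against MED gave a member median of 0.13 beside 0.00 over all identifiers, with 0 of 88 called by edgeR (background 0.0%), 6 at an unadjusted p below 0.05 (6.82%, beside 6.48% of all identifiers) and 1 called by DESeq2 (background 0.384%). After the data were seen, the ee2 libraries were also set beside the 44 libraries of the cormorant bap, cpf and flx tables, 14 of them labelled controls. Rank 1 had 17740, 17973, 19013, 13680 and 5907 CPM at ee2 MED and 18680, 11107, 9884, 17239 and 15400 CPM at ee2 HIGH, and at most 37.4 CPM in the 44 others. Rank 2 had 2271, 3466, 4461, 2291 and 241 CPM at ee2 MED and 2988, 2513, 1351, 3353 and 4006 CPM at ee2 HIGH, and at most 2.23 CPM in the others. The ee2 libraries and the others did not overlap for either.

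Several other members stood apart in cormorant in the same way. Rank 4 had 20.6 to 276 CPM at ee2 MED, 80.99 to 230 CPM at ee2 HIGH and at most 6.51 CPM in the 44 others. Rank 8 had 29.4 to 362 CPM at ee2 MED, 93.5 to 301 CPM at ee2 HIGH and at most 4.77 CPM in the others. Rank 31 had 11581 to 41750 CPM at ee2 MED, 22470 to 51059 CPM at ee2 HIGH and 1822 to 12390 CPM in the others. The lowest MED library, replicate 5, overlapped the others for rank 31 and was the lowest of the 10 for ranks 1, 2, 4 and 8 as well.

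Members differed between the birds too. The CPM of rank 2 was 1.46 to 3.16 times that of rank 1 in early-life quail exposed to ee2 and 0.0408 to 0.260 times in cormorant ee2 libraries. In the 9 other quail libraries with at least 100 CPM of both it was 0.450 to 4.54 times. These ratios compare counts and not molecules. Rank 9 had 33.1 to 110 CPM at cormorant ee2 MED, 63.1 to 123 CPM at ee2 HIGH and 46.4 to 134 CPM in the 44 others, which overlap. Rank 3 had 74.0 CPM and rank 10 had 128 CPM in HIGH replicate 2 alone, and at most 0.506 and 1.52 CPM in the other 9 ee2 libraries. Rank 7 had at most 0.499 CPM in any cormorant library.

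The ee2 means were set beside those of the 14 labelled controls for the 97 members listed in all 4 cormorant tables, with no limit on their level, and for the 9728 identifiers so listed of those that passed the rule before ranking. Of the 97, 43 had an L of at least 1 at ee2 HIGH (background 14.0%) and 34 at ee2 MED (background 11.0%). Of those 43, 5 had a control mean under 1 CPM, and ranks 3 and 10 each reached their L through a single HIGH library, replicate 2. At HIGH 8 had an L of -1 or less (background 3.29%), down to -4.74 for rank 37, singled out after its values were seen. Of these 8, rank 25 had an L of -1.04 beside a control mean of 3.25 CPM. Its control median was 0.155 CPM and its control maximum 42.7 CPM. Controls also spread widely for other members. Rank 52 had a control minimum of 3.51 CPM beside a median of 367 CPM, and rank 31 had 1822 CPM beside 8205 CPM. Rank 13 had a control maximum of 1799 CPM beside a median of 0.343 CPM. Such values enter the control means behind each L. The control minima of ranks 31 and 52 and the control maxima of ranks 13 and 25 are whole multiples of the same CPM step. Values of a single library share such a step. No L without that library is given here. The median L at HIGH was 0.76 for the members and 0.56 for the 9728 identifiers, so levels differed between the tables across identifiers as well. Exposure and table cannot be told apart in this setting, and no test was made.

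**Figure D5:**
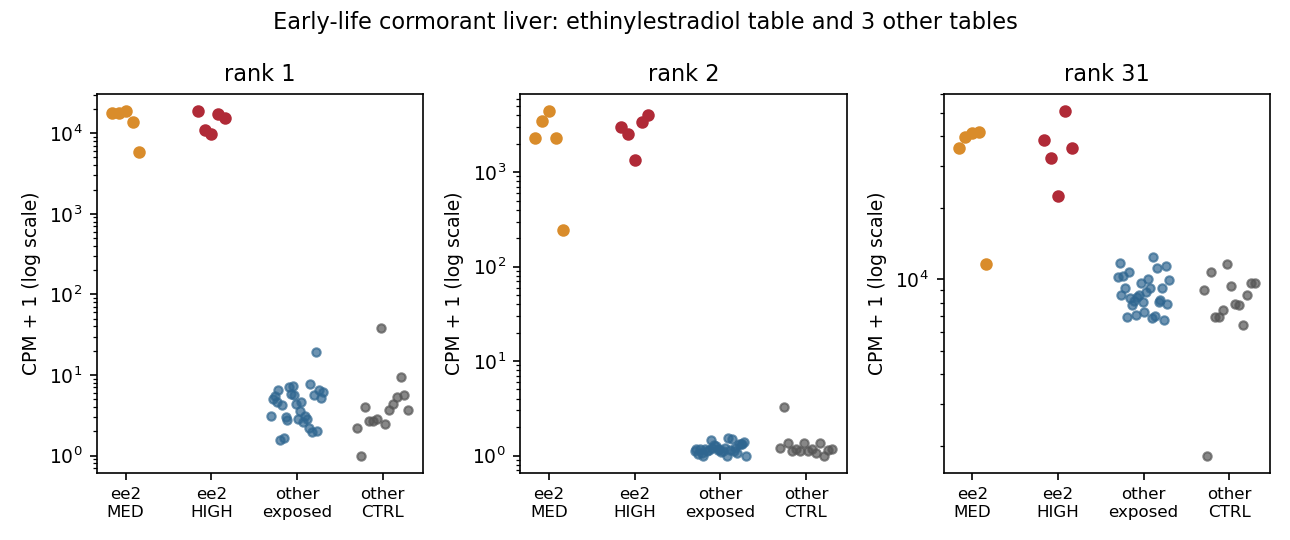
Level of ranks 1, 2 and 31 in early-life cormorant liver, in CPM plus 1 on a log axis, at ee2 MED and ee2 HIGH (5 libraries each), in exposed libraries of the bap, cpf and flx tables (30) and in their labelled controls (14); each point is a library. At ranks 1 and 2 all ee2 libraries lie above all others, and at rank 31 the lowest ee2 MED library overlaps them.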

How the data were processed

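The authors deposited whole-number counts per identifier, with a table for each chemical, stage and species. RNA was extracted with column kits and sequenced as paired-end reads on Illumina instruments, per the labels' protocols. The sources used here name neither an aligner or counter nor the reference of the identifiers. Libraries were grouped by their labels for chemical and level, and 25 tables were used. In 10 of them, 52 columns of per-sample counts matched no label and were not used. The early-life pb table, whose 10 libraries hold the counts of the adult pb table, was left out, as were 2526 identifiers with an empty cell in the early-life cpf table. The closest 2 quail libraries of a group differed by a chi-square of 19.3 per degree of freedom over 375 pairs, so none was a copy of another in its group.

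Each table was fitted alone with all its groups (filterByExpr, minimum count 10 and minimum total 15; TMM factors; quasi-likelihood test of edgeR 4.0.16 with limma 3.58.1 in R 4.3.3), adjusting p-values over all identifiers tested. Each SE printed is the absolute log2 fold change divided by the square root of the F statistic of the edgeR test. It was not estimated apart from that test. The scripts were tested on simulated counts. Members and comparisons were chosen with earlier results of these data known. Identifiers are printed for ranks 1 and 2 and the 2 lowest log2 fold changes in adult ee2 HIGH. Ranks 1 to 10, in places only as a set, and members called outside the early-life ee2 table are described. Other ranks were chosen after their values were seen. Alternatives were RLE factors, no filter, DESeq2 1.42.0, only the groups compared, the replicate number as a block and leaving out each library, and for the member rule other pseudocounts, limits, scalings and means.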

Additional observations from a re-analysis of the deposited data

Results flagged for a closer look

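Ranks 1 to 10 and rank 31 in the quail ee2 tables, and ranks 1 and 2 in the other quail tables, were checked for a library far from the rest of its group by Dixon's 95% critical value, in groups that reached 5 CPM. In 25 of 75 groups a library was that far, and in each it was the highest one. The critical value is set to flag about 1 in 20 groups of normally distributed values. CPM values are skewed, and some groups reached 5 CPM only through the flagged library, such as rank 1 in early-life flx MED (6.33 CPM, next 1.11). The count of flagged groups is therefore not set against that rate. Ranks often share the library, so the flagged groups are not separate events.

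In early-life ee2 controls, replicate 3 had 138.71 CPM of rank 1 (next 9.85), 364.66 CPM of rank 2 (next 25.45) and 54.67 CPM of rank 10 (next 3.69). At MED, replicate 3 had 482.51 CPM of rank 10 (next 235.51). In adult ee2 HIGH, replicate 1 had 5011.65 CPM of rank 1 (next 6.65), 10307.05 CPM of rank 2 (next 32.77), 104.99 CPM of rank 8 (next 21.99), 377.53 CPM of rank 9 (next 40.04) and 725.06 CPM of rank 10 (next 188.63). Adult control replicate 6 had 10.71 CPM of rank 8 (next 3.26).

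In early-life hbcd, HIGH replicate 5 had 272.74 CPM of rank 1 (next 59.5), and MED replicate 5 had 3383.78 CPM of rank 1 (next 189.99) and 6533.56 CPM of rank 2 (next 862.96). Adult cpf HIGH replicate 5 had 119.75 CPM of rank 1 (next 3.84) and 107.5 CPM of rank 2 (next 16.87). The other such libraries lay lower. In early-life seme, MED replicate 2 had 51.9 CPM of rank 1 and 27.87 CPM of rank 2, and control replicate 1 had 29.57 CPM of rank 1. In early-life tb, control replicate 2 had 22.9 CPM of rank 1 and 47.09 CPM of rank 2. In early-life bap, HIGH replicate 2 had 25.96 CPM and control replicate 2 had 53.29 CPM of rank 2. Early-life cpf HIGH replicate 4 had 13.57 CPM of rank 2, and early-life flx MED replicate 4 had 6.33 CPM of rank 1 and 15.61 CPM of rank 2. No member had its HIGH libraries all on one side of the controls in early life and all on the other side in adults, for ee2 or bap.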

How the results depend on the processing

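Of 100 members, 73 (pseudocount of 5 CPM) to 97 stayed under the other forms of the rule, and 85 to 98 when a library was left out. The count of called members moved by over 1.5 times under some settings; the cause was not tested. In adult ee2 HIGH, DESeq2 called 2 members (rank 13 and rank 4, which had 2.05 and adjusted p = 0.0384), the replicate block 0 and leaving out a library 0 to 3, with ranks 1 and 2 joining rank 13 without HIGH replicate 5 (adjusted p = 0.0409 and 0.0422). DESeq2, in place of 0 by edgeR, called 5 in early-life bap HIGH, 2 in adult pb HIGH, 10 in early-life cpf, 1 in early-life flx, 1 in early-life hbcd, 7 in adult flx, 8 in adult seme and 1 in cormorant. Without the filter on low counts 2 were called in early-life cpf and 3 in trout. Leaving out a library gave 0 to 1 in early-life cpf (1 without HIGH replicate 1 or 2), 0 to 2 in adult seme (2 without HIGH replicate 5) and 0 to 2 in trout (2 without HIGH replicate A). The median log2 fold change moved past the spread of control or MED libraries in adult bap HIGH (-0.024 without the filter; -0.147 to -0.0084 leaving out a library, nearest 0 without control replicate 2), adult seme (-0.062 to 0.078, negative without HIGH replicate 2, 4 or 5) and cormorant HIGH against MED (0.068 to 0.18, lowest without HIGH replicate 4). Single ranks changed sign: rank 5 in adult ee2 HIGH (-0.04 to 0.71 when a library was left out, negative without HIGH replicate 1), rank 7 in adult ee2 MED (-0.012 with the replicate block, -0.17 to 0.22 when a library was left out) and rank 10 there (-0.064 to 0.93 when a library was left out).

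Libraries with the same number were checked for pairing: in 0 of 29 comparisons was every pair's correlation over 0.1, and pairs ran from -0.62 to 0.74. In adult ee2 HIGH all pairs were positive, from 0.054 to 0.203. The check asks for a correlation over 0.1 in every pair, so it cannot exclude a weaker or partial pairing. With the replicate block 47 members were called in each early-life ee2 comparison and 0 in adult ee2 HIGH. Members under 1 CPM rest on a few reads.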
